A study of Mus musculus with 4 samples.

Results

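Among mouse heart cells sorted for a PDGFRa reporter, 77 of 12567 cells (0.613%, exact 95% interval 0.484 to 0.765%) held at least 2 UMIs of Wt1, and they are described here against the 12436 cells of the same library with no Wt1 UMI. A UMI is the tag that counts 1 captured RNA molecule. The members were chosen by that count among cells that passed 3 limits (500 or more genes, 1000 or more UMIs, mitochondrial UMIs no higher than 10%), so the Wt1 level itself is a description and was given no test. The 54 cells with exactly 1 Wt1 UMI belong to neither class. The library held PDGFRa H2BEGFP+ cells, in which the Pdgfra gene drives a green fluorescent protein tied to a histone, from hearts of C57BL/6 mice (B6.129S4-Pdgfratm11(EGFP)Sor/J). It pooled 4 hearts, 2 of them undamaged and 2 taken 7 days after ligation of the left anterior descending coronary artery (LAD), a model of myocardial infarction. Each heart carried an antibody hashtag, and the labels used here do not say which hashtag marked a ligated heart, so the hearts were not grouped by injury. The ages and sexes of the mice are not given in the labels. The sort limits the members to cells with the reporter protein, which can outlast the Pdgfra transcript. The other libraries of the series held Hic1 CreERT2 tdTomato+ cells 7 days after ligation, Hic1 CreERT2 tdTomato+ cells of undamaged hearts, and Hic1 Citrine+ cells of undamaged hearts, with 3 hearts pooled in each. All 4 libraries together had 30454 kept cells.

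Wt1 encodes a zinc finger transcription factor that marks the epicardium, the mesothelial sheet covering the heart. In the embryo, epicardial cells leave this sheet by an epithelial to mesenchymal transition and give rise to fibroblasts and mural cells. In the adult, Wt1 is low in most of the epicardium and comes back on after infarction. A mesothelial cell is known by keratins (Krt8, Krt18, Krt19), by uroplakins on its free surface (Upk1b, Upk3b) and by mesothelin (Msln), whereas a cardiac fibroblast is known by Pdgfra, Tcf21 and fibrillar collagens. In build mm10 (GENCODE M21 annotation), Wt1 lies at chr2:105126529-105173616 on the plus strand.

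Members were deeper than the rest of the library. Their median was 19667 UMIs per cell (7477 to 51472), against 7688 UMIs in cells without Wt1 (1009 to 45014), and 55 of the 77 had at least 15000 UMIs. The median share of mitochondrial UMIs was 2.78% in members and 2.82% in cells without Wt1. A single hashtag with at least 80% of the hashtag counts was found in 51 of 77 members (66.2%, exact 95% interval 54.6 to 76.6%) and in 57.9% of the cells without Wt1. Among cells with at least 15000 UMIs these shares were 72.7% in members and 79.9% in cells without Wt1. Of the 2016 cells with at least 15000 UMIs, the 55 members made up 2.73%. A threshold of 2 UMIs is met more easily in a deep cell. Droplets with more than 1 cell were not removed, and their part in the results was not tested. Of the members, 18 had 2 Wt1 UMIs, 30 had 3 to 5 and 29 had 6 or more, with 20 the highest. Their summed Wt1 level was 243 CPM (counts scaled to a total of 1e6 UMIs). No barcode of a member recurred among the kept barcodes of the other libraries, although 35 kept barcodes were shared with the citrine library and 2 with the undamaged tdTomato library. The first 6 bases of a barcode matched those of a PDGFRa barcode in 26.9% of the ligated and 28.1% of the undamaged tdTomato barcodes, and in 100% of the citrine barcodes, so it is not settled that all libraries used the same barcode set.

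Most members with a single hashtag came from 1 heart. Heart 2 held 43 members among 3468 kept cells (1.24%, exact 95% interval 0.899 to 1.67%). Heart 1 held 6 of 2140 (0.280%, 0.103 to 0.609%), heart 4 held 2 of 1117 (0.179%, 0.0217 to 0.645%) and heart 3 held 0 of 570, which allows a share of up to 0.526%. A further 26 members lay among the 5272 cells without a single hashtag (0.493%). Heart 2 thus gave 84.3% of the assigned members and 47.5% of all assigned cells. With every cell thinned to 5000 UMIs, the expected share with at least 1 Wt1 UMI was 0.288% in heart 1, 1.23% in heart 2, 0% in heart 3 and 0.150% in heart 4, with heart 2 again highest. The intervals cover counting error only, and no value per heart is replicated.

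The 4 hearts also differed in their cells without Wt1. Postn, a matrix protein of activated fibroblasts, was at 3643 CPM in heart 1, 3918 CPM in heart 2, 201 CPM in heart 3 and 284 CPM in heart 4. Median UMIs of those cells were 10858 in heart 1, 10538.5 in heart 2, 6438 in heart 3 and 6757 in heart 4. Hearts 1 and 2 were above hearts 3 and 4 in both Postn and depth. The exact interval of the Wt1-positive share of heart 1 does not overlap that of heart 2. It does overlap those of hearts 3 and 4. Restricted to cells with at least 15000 UMIs, heart 1 had 5 members of 610 cells (0.820%, 0.267 to 1.90%) and heart 2 had 34 of 991 (3.43%, 2.39 to 4.76%), while hearts 3 and 4 had only 1 and 6 such cells.

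**Figure D1:**
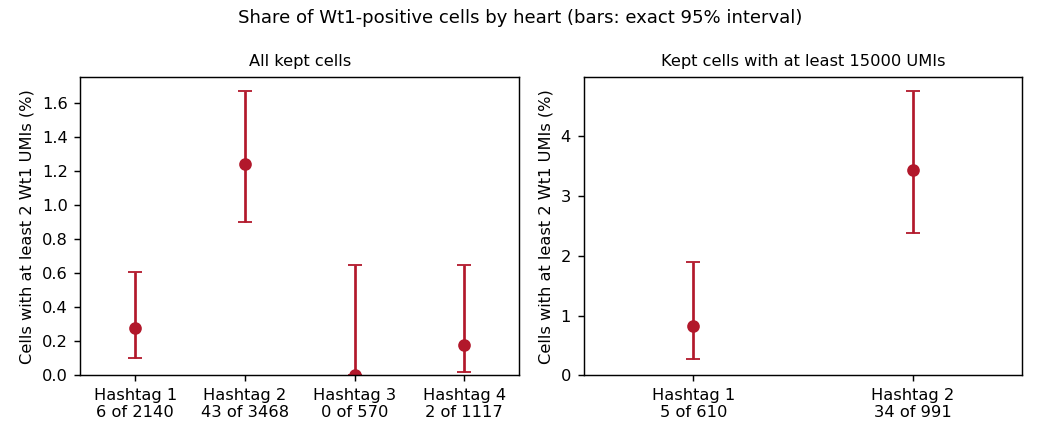
Share of kept PDGFRa cells with at least 2 Wt1 UMIs in each heart, as percent on the vertical axis, for all kept cells (left) and for cells with at least 15000 UMIs (right, only hearts with at least 50 such cells); points are shares and bars exact 95% intervals. Heart 2 stands at 1.24% and heart 1 at 0.280% in the left panel.

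The 7 epicardial genes were present in a minority of the members. At least 1 UMI of Upk3b, Msln, Krt8, Krt18, Krt19, Lrrn4 or Upk1b was found in 30 of 77 members (39.0%, exact 95% interval 28.0 to 50.8%), against 12 of 12436 cells without Wt1 (0.0965%, 0.0499 to 0.168%). No cell without Wt1 carried 2 or more of these genes, whereas 23 members did. The other 47 members had none of them. Thinned to 5000 UMIs, the shares were 26.7% in members and 0.0550% in cells without Wt1. The share among cells without Wt1 of this run serves as the background for the members' share.

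Members differed greatly among themselves. Of the 77, 7 had 1 of the 7 genes, 12 had 2, 6 had 3, 4 had 4 and 1 had all 7, with no cell at 5 or 6. The cell with all 7 came from heart 1 and had 28610 UMIs. It held 33 UMIs of Upk3b, 19 of Upk1b, 15 of Krt19, 10 of Msln and 6 of Wt1, beside 87 of Col1a1, 199 of Dcn and 1 of Pdgfra. By itself it carried 33 of the 81 Upk3b UMIs of all members. Its ratio of Upk3b to Wt1 UMIs was 5.50, against 0.122 in the other 76 members together.

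The citrine library gave a measure of the same genes that the rule did not use. It held 4 cells with at least 2 Wt1 UMIs of 10838 kept cells (0.0369%). Each carried 6 or 7 of the 7 genes, with no Pdgfra UMI in any. Of the 10830 citrine cells without Wt1, 19 had at least 1 of the 7 genes and 3 had 4 or more. In the PDGFRa library 0 cells without Wt1 had 4 or more. In the 77 PDGFRa members Upk3b was at 49.5 CPM, Msln at 12.2 CPM and Lrrn4 at 34.2 CPM. In the 4 citrine cells Upk3b was at 2026 CPM, Msln at 1406 CPM and Lrrn4 at 1004 CPM. Upk3b to Wt1 stood at 81 to 398 UMIs in the PDGFRa members (a ratio of 0.204) and at 111 to 24 UMIs in the citrine cells (4.63). The tdTomato libraries held 5 such cells of 4263 after ligation and 2 of 2786 in undamaged hearts. None of these 7 cells had a UMI of the 7 genes. Their median depth was 14561 UMIs after ligation and 4568.5 UMIs in undamaged hearts. It was 12667.5 UMIs in the 4 citrine cells and 19667 UMIs in the 77 PDGFRa members. The levels compare single libraries, and no test was made between them.

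**Figure D2:**
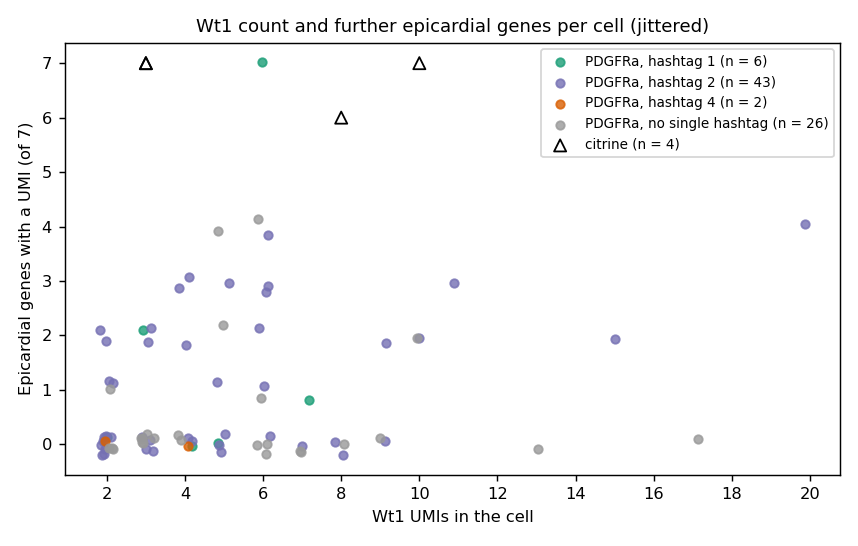
Each point is 1 cell with at least 2 Wt1 UMIs, with its Wt1 UMIs on the horizontal axis and the number of the 7 epicardial genes with a UMI on the vertical axis, jittered; circles are the 77 PDGFRa members by hashtag and triangles the 4 citrine cells. Of the PDGFRa members, 47 lie at 0 and 1 at 7, and the citrine cells lie at 6 and 7.

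Just inside the threshold, the 18 cells with 2 Wt1 UMIs had Clu at 1106 CPM, Wnt4 at 214 CPM and Maf at 211 CPM. Just outside it, the 54 cells with 1 Wt1 UMI had Clu at 120 CPM, Wnt4 at 19.5 CPM and Maf at 72.7 CPM, values that lie between the members and the cells without Wt1. Epicardial genes were found in 5 of the 18 cells with 2 Wt1 UMIs (27.8%), in 25 of the 59 with 3 or more (42.4%) and in 2 of the 54 with 1 (3.70%). These values are descriptions of the members' choice.

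To ask which other genes differed, counts were summed over the cells of each class within each heart. The sums held 6, 43 and 2 members of hearts 1, 2 and 4 (143310, 914138 and 29351 UMIs), set against 2129, 3392 and 1115 cells without Wt1 of the same hearts. The rule of at least 10 cells in a sum left heart 2 alone and hence no test, so the 3 hearts with any member were used, a choice made after seeing the data. Of 7863 genes tested with edgeR's quasi-likelihood test with the heart as a block, 245 were called higher in members (3.12%) and 362 lower (4.60%) at a Benjamini-Hochberg adjusted p under 0.05. Of the called genes, 118 were higher and 308 were lower in every one of the 3 hearts, and over all tested genes these shares were 12.9% and 22.7%. DESeq2 on the same sums called 135 higher (1.72%) and 93 lower (1.18%).

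These counts depend strongly on the hearts and on the filter. Without heart 2 edgeR called 37 genes higher and 18 lower, without heart 1 it called 164 higher and 196 lower, without heart 4 it called 437 higher and 462 lower, and with a minimum mean of 50 CPM it called 25 higher and 44 lower. edgeR's p-values rest on 1 spread shared by all genes, and the sum of heart 4 holds 2 cells. In that sum 1 UMI stands for 34.1 CPM, so a direction in heart 4 can rest on 1 UMI. A gene under that level in cells without Wt1 can read as lower there merely by having no UMI. Among genes that at least 15 of the 18 other settings could test, 20 were called higher under every one that tested them, and 5 were called lower in this way. The 20 include Upk3b, Nkain4, Dmkn, Gpm6a, Rspo1, Clu, Col6a5, Ptgs1, Lcn2, Wnt4, Maf, Atp1b1, S100a1 and Mpp6, described with their values in what follows, and the 5 include Apod, Ecm2, Pcolce2 and Pcsk6. Tnfrsf11b, the decoy receptor osteoprotegerin, was also among the 20, and it was named after its values were seen. It was at 140, 165 and 0 CPM in members of hearts 1, 2 and 4, against 8.99, 8.60 and 1.17 CPM in cells without Wt1. Genes under 10 CPM in cells without Wt1 passed the minimum level only through the members, and such genes low in members were not tested.

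The epicardial genes of the rule were higher in the members' sums of hearts 1 and 2. Upk3b, a uroplakin of the mesothelial surface, was at 230 CPM in heart 1, 40.5 CPM in heart 2 and 0 CPM in heart 4, and no UMI of it fell in the cells without Wt1 assigned to these hearts. Against a floor of 3 counts over those cells, Upk3b was at least 1564-fold higher. Over the whole library, with the unassigned cells, Upk3b was at 49.5 CPM in members and at 0.0508 CPM (6 UMIs) in cells without Wt1. Lrrn4, a membrane protein with leucine-rich repeats, was at 41.9, 43.8 and 0 CPM in members of hearts 1, 2 and 4, against 0, 0.0252 and 0 CPM in their cells without Wt1. Krt8 was at 34.9, 30.6 and 0 CPM in members and at 0, 0.0756 and 0 CPM in cells without Wt1. The 2 members of heart 4 held 29351 UMIs together, too few to show either gene at the levels of the other hearts. In heart 1 the single cell with all 7 genes held every members' UMI of Upk3b (33), Krt19 (15), Lrrn4 (6) and Krt8 (5), so for these 4 genes that heart's value is the value of 1 cell.

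Of the 7 epicardial genes, 6 were tested and all 6 rose, and DESeq2 called 4 (not Msln or Upk1b). Their median log2 fold change was 11.32, or 9.90 with the 3 genes that had no UMI in the cells without Wt1 of these hearts at their bound, against -0.09 over all 7863 genes. These genes passed the minimum level for the test only through the members, so the count and the median are a description and no support. Krt18 was too low to be tested, with 3 UMIs in all members. For Upk1b all 20 UMIs of the summed members lay in heart 1, of which 19 were in the single cell with all 7 genes.

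Further mesothelial genes followed. Of 18 listed, 11 were tested, 8 rose and none fell, with a median log2 fold change of 5.24 (DESeq2 called 5). Of these 8, all but Ezr and Sema3d lay under 10 CPM in cells without Wt1 and entered the test only through the members. This count and median, and the p-values of those genes, are likewise a description. Nkain4, a small membrane protein that binds the sodium pump, was at 551, 247 and 34.1 CPM in members of hearts 1, 2 and 4, against 0.550, 0.807 and 1.30 CPM in cells without Wt1 (log2 fold change 8.52 ± 0.41 SE, edgeR adjusted p = 2.28e-90). The value in members of heart 4 is 1 UMI. Nkain4 was found in 45 of 77 members (58.4%) and in 0.587% of cells without Wt1. It thus reached more members than any of the 7 epicardial genes. Dmkn, a secreted epithelial protein, was at 789, 267 and 0 CPM in members and 0.275, 2.29 and 0 CPM in cells without Wt1. Gpm6a, a membrane glycoprotein, was at 147, 53.6 and 0 CPM in members and 0.0393, 0.0504 and 0 CPM in cells without Wt1.

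Rspo1, a secreted enhancer of Wnt signalling, was at 140, 71.1 and 0 CPM in members and at 1.73, 1.76 and 6.89 CPM in cells without Wt1 (log2 fold change 5.24). Slpi, a secreted protease inhibitor, had a log2 fold change of 7.09, Cldn15, a claudin of tight junctions, 2.72, Ezr, the membrane to actin linker ezrin, 1.71, and Sema3d, a secreted semaphorin, 1.48. DESeq2 did not call the last 3 of these. Cdh1, Calb2, Krt7 and Krt14 had no UMI in any member. Members had a median of 3 of the 18 genes per cell (0 to 12), against 1 (0 to 7) in cells without Wt1 of at least 15000 UMIs. At least 4 of the genes were found in 38 of 77 members (49.4%), in 13 of the 47 members without any of the 7 epicardial genes (27.7%), and in 1.45% of those deep cells without Wt1.

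Members also shared genes that the epicardial lists do not hold. Clu, the secreted chaperone clusterin (chr14:65968483-65981547, mm10), was at 1493, 1746 and 852 CPM in members of hearts 1, 2 and 4, against 5.93, 10.0 and 7.54 CPM in cells without Wt1. Its log2 fold change was 7.36 ± 0.39 (SE, edgeR adjusted p = 2.39e-74). Clu lay at 8.32 CPM in the cells without Wt1 of these hearts together, under the minimum of 10 CPM for the test. It entered the test only through the members, so the p-value is a description and no support. It was found in 60 of 77 members (77.9%) and in 2.89% of cells without Wt1. Members were higher in all 3 hearts. Clu was at 1826 CPM in the 47 members with none of the 7 epicardial genes, at 1343 CPM in the 22 with 2 to 4 of them and at 2132 CPM in the cell with all 7.

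Wnt4, a secreted Wnt ligand, was at 105, 207 and 204 CPM in members and 4.12, 4.21 and 7.28 CPM in cells without Wt1 (log2 fold change 5.16 ± 0.34, edgeR adjusted p = 1.53e-48). Maf, a basic leucine zipper transcription factor, was at 34.9, 258 and 307 CPM in members and 6.48, 6.91 and 7.02 CPM in cells without Wt1 (log2 fold change 4.64). Col6a5, a chain of collagen VI, was at 349, 398 and 750 CPM in members and 7.03, 6.73 and 0.650 CPM in cells without Wt1 (log2 fold change 6.45). Both transcription factor and collagen were higher in all 3 hearts. Wnt4, Maf and Col6a5 lay under 10 CPM in cells without Wt1 of each heart and entered the test only through the members. Their fold changes and p-values are therefore a description and no support. Wnt4 had no UMI in the 4 citrine cells, where Clu was at 1150 CPM and Col6a5 at 36.5 CPM.

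The other genes named by the largest fold changes among those higher in every heart had several kinds of product. Ptgs1, the constitutive prostaglandin synthase, had a log2 fold change of 6.40. Lcn2, a lipocalin that binds iron carriers, had 5.59, with 447 CPM in members of heart 1 and 30.6 and 34.1 CPM in those of hearts 2 and 4, against 5.97, 0.983 and 2.21 CPM in cells without Wt1. Myrf, a membrane-bound transcription factor, had 5.12, and Atp1b1, a sodium pump subunit, had 3.33. S100a1, a calcium-binding protein, had 3.00, Lgi2 had 2.86, the adhesion molecule Pvrl2 (nectin-2) 2.84, the membrane scaffold Mpp6 2.81, the actin-associated Pdlim4 2.77 and the carboxypeptidase Cpz 2.68. DESeq2 called each of these. In members of heart 4, Ptgs1, Lcn2 and Pdlim4 each had 1 UMI. Ptgs1, Lcn2, Myrf, Pdlim4 and Cpz lay under 10 CPM in cells without Wt1 summed over the hearts. These genes likewise entered the test only through the members. Myrf, Pvrl2, Pdlim4 and Cpz lost their edgeR calls without heart 2.

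**Figure D3:**
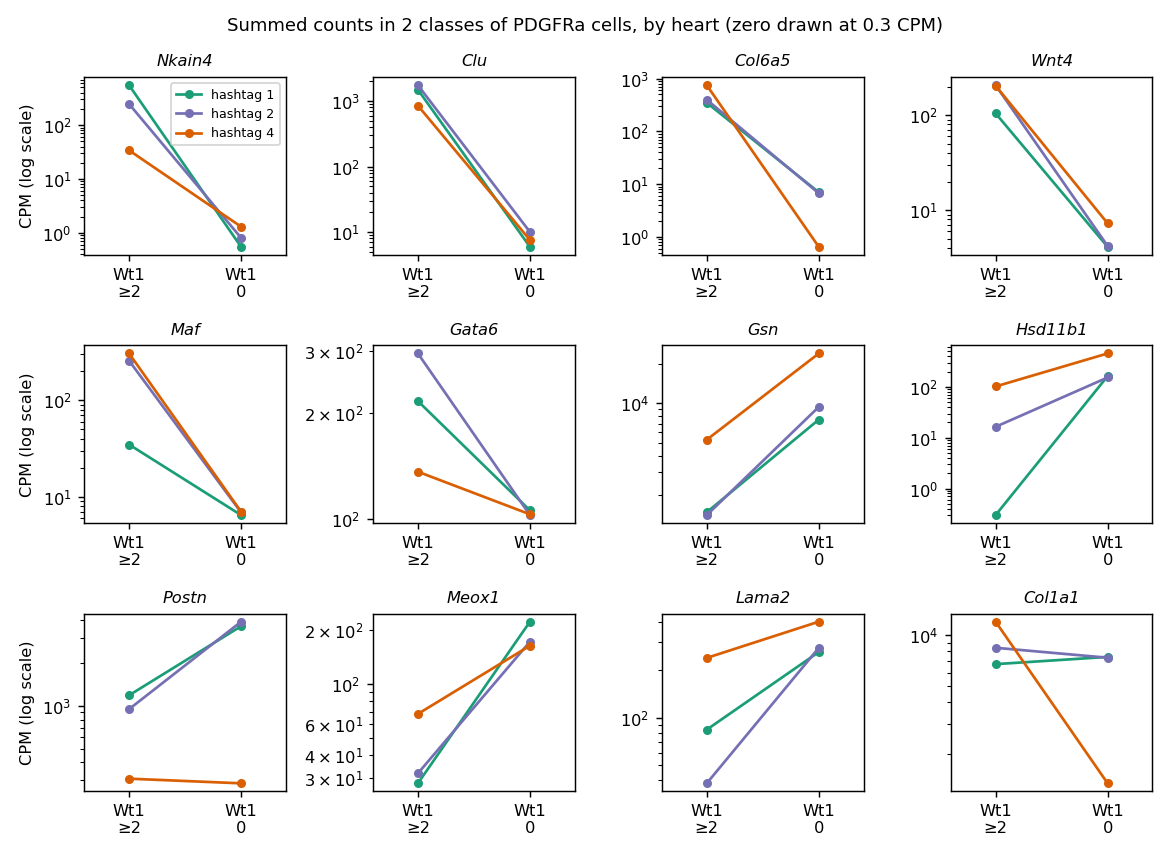
CPM (log axis) of 12 genes in summed members (left in each panel) and summed cells without Wt1 (right) of hearts 1, 2 and 4, with 1 line per heart. Nkain4, Clu, Col6a5, Wnt4 and Maf are higher in members of each heart, Gsn, Hsd11b1, Meox1 and Lama2 are lower, and Col1a1 does not keep 1 direction. The Nkain4 value in members of heart 4 is 1 UMI.

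The tested transcription factors of the epicardium and the cardiac mesenchyme did not move as a group. Of 16 listed, 13 were tested, 3 rose, 2 fell and 8 were not called, with a median log2 fold change of -0.60. DESeq2 called the 2 that fell and none higher. Bnc1, Gata5 and Isl1 were too low to be tested. They had 22, 18 and 5 UMIs, found in 15, 15 and 3 of the 77 members. No UMI of these genes fell in the cells without Wt1 of hearts 1, 2 and 4. Gata6 rose with 216, 295 and 136 CPM in members of hearts 1, 2 and 4, against 106, 103 and 103 CPM in cells without Wt1 (log2 fold change 1.11), and Meis1 (1.41) and Osr1 (1.78) rose with it. Osr1 was lower in the members of heart 4, which held 1 UMI of it. Tbx20, a T-box factor, fell with a log2 fold change of -2.52 and Meox1, a homeobox factor, with -2.48. Meox1 was at 27.9, 31.7 and 68.1 CPM in members and 223, 173 and 164 CPM in cells without Wt1. Tcf21, which marks cardiac fibroblasts and their epicardial precursors, was at 363, 66.7 and 170 CPM in members and 274, 281 and 331 CPM in cells without Wt1, and it was not called.

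Of 8 tested genes of retinoic acid metabolism, 2 rose, 1 fell and 5 were not called, with a median log2 fold change of 0.44, and DESeq2 called none. Aldh1a2, the main retinoic acid synthase of the epicardium, was at 181, 112 and 34.1 CPM in members and 65.5, 47.2 and 55.0 CPM in cells without Wt1 (log2 fold change 1.18). Rbp4, a retinol carrier, had 1.55 and Aldh1a1, another synthase, had -1.09. The direction of Aldh1a2 was not kept in heart 4, where members held 1 UMI of it, nor that of Rbp4 in heart 1. Without heart 2 Rbp4 turned its sign (-1.26), and Aldh1a1 stood at 0.017 among cells of at least 15000 UMIs. Of 16 listed junction genes 5 were tested. The tight junction proteins F11r (7.32) and Cldn15 rose, Jup, a desmosomal plakoglobin, fell (-1.11) and 2 were not called (median 1.54). F11r and Cldn15 lay under 10 CPM in cells without Wt1 and entered the test only through the members. This count and median are therefore a description. Cdh1, Epcam, Ocln and Pkp2 had no UMI in any member. Of 11 tested genes of the epithelial to mesenchymal transition, Cdh11, a mesenchymal cadherin, rose (2.02, higher in 3 of 3 hearts) and 10 were not called, with a median of -0.33.

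Members kept fibroblast RNA. All 77 had UMIs of Col1a1, Col3a1 and Dcn. Pdgfra was found in 50 of 77 members (64.9%) and in 62.4% of cells without Wt1. With cells thinned to 5000 UMIs these shares were 27.7% in members and 47.4% in cells without Wt1. Its level was 76.8, 58.0 and 136 CPM in members of hearts 1, 2 and 4, against 90.5, 100.03 and 186 CPM in cells without Wt1, lower in each heart but not called (log2 fold change -0.62, edgeR adjusted p = 0.343). Hic1 was at 25.7 CPM in members and 30.0 CPM in cells without Wt1, over all hearts. Of 16 fibroblast genes tested, 1 rose, 4 fell and 11 were not called, with a median of -0.66.

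Among the fibroblast genes, Gsn, the actin-severing protein gelsolin, changed most. It was at 1479, 1407 and 5281 CPM in members, against 7520, 9399 and 24021 CPM in cells without Wt1 (log2 fold change -2.55 ± 0.29, edgeR adjusted p = 1.29e-16). It was found in 98.7% of members and 99.8% of cells without Wt1. Smoc2, a matrix protein, fell (-1.76), and so did the proteoglycans Dcn (-0.82) and Lum (-0.996), which DESeq2 did not call. Col1a1, the fibrillar collagen I chain, was called higher at 6727, 8397 and 11959 CPM in members and 7420, 7337 and 1338 CPM in cells without Wt1. It was higher in hearts 2 and 4 and lower in heart 1, and its sign turned among cells of at least 15000 UMIs (-0.14).

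Genes of resident fibroblasts were lower. Of 10 tested, 7 fell, none rose and 3 were not called, with a median of -1.64 (DESeq2 called 3). Hsd11b1, which regenerates active glucocorticoid, was at 0, 16.4 and 102 CPM in members and 164, 154 and 457 CPM in cells without Wt1 (log2 fold change -3.38 ± 0.42). G0s2, an inhibitor of lipolysis, was at 34.9, 43.8 and 443 CPM in members and 316, 301 and 1009 CPM in cells without Wt1. Dpep1 (-1.82), Htra3 (-1.26), the complement component C7 (-2.26), the chemokine Cxcl14 (-2.03) and the methyltransferase Inmt (-1.45) were the others called. Inmt turned its sign among cells of at least 15000 UMIs (0.89). Cxcl14 was higher in members of heart 4 than in its cells without Wt1.

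Of 11 tested genes of Sca1-high progenitors, 5 fell and 6 were not called, with a median of -0.93 (DESeq2 called 2). Pi16, a secreted protein of adventitial fibroblasts, was at 181, 143 and 204 CPM in members, against 373, 441 and 884 CPM in cells without Wt1, and Efhd1 fell with a log2 fold change of -4.47. Cd34 (-1.04), Ly6c1 (-1.22) and Clec3b (-1.09) were called by edgeR but not by DESeq2. Ly6a, which encodes Sca1 itself, was not called (-0.71).

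Of 16 tested genes of activated fibroblasts, 1 rose, 7 fell and 8 were not called, with a median of -0.79 (DESeq2 called 4 lower). Postn was at 1186, 947 and 307 CPM in members and 3643, 3918 and 284 CPM in cells without Wt1, so it was lower in hearts 1 and 2 and slightly higher in heart 4. Thbs4, a thrombospondin, was at 0, 1.09 and 0 CPM in members and 155, 215 and 17.0 CPM in cells without Wt1 (log2 fold change -7.74 ± 0.71, edgeR adjusted p = 1.04e-24). The summed members held 1 UMI of Thbs4, while all 77 members, with the unassigned ones, held 30 UMIs in 2 cells. The fold change of Thbs4 thus leaves out most of its UMIs in members. Comp, of the same family, had -5.08, Ltbp2 -1.97, Col8a1 -2.16, Ddah1 -2.16 and Cilp -1.61. Fn1, fibronectin, was the gene that rose (1.23), with 2296, 2387 and 1124 CPM in members and 1502, 1691 and 114 CPM in cells without Wt1. DESeq2 did not call Fn1, edgeR lost the call without heart 2, and its sign turned among cells of at least 15000 UMIs (-0.24). Cthrc1, a secreted collagen modulator, was at 837, 591 and 136 CPM in members and 881, 1142 and 15.7 CPM in cells without Wt1 and was not called.

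Of 14 tested basement membrane genes, 6 fell, 1 rose and 7 were not called, with a median of -0.79 (DESeq2 called 4 lower). Lama2, a laminin chain, was at 83.7, 38.3 and 238 CPM in members and 260, 276 and 405 CPM in cells without Wt1 (log2 fold change -2.07). Col15a1 (-2.03), Lamc1 (-1.70), the linker Nid1 (-1.24), Col4a1 (-1.17) and Col4a2 (-0.95) fell with it, although Col4a2 was higher in members of heart 4. Col18a1 rose (1.44).

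Beside Hsd11b1, Thbs4 and Comp, the genes with the largest falls among those lower in every heart were secreted or signalling proteins for the most part. Pcsk6, a protease that matures growth factor precursors, was at 0, 8.75 and 136 CPM in members, against 159, 191 and 479 CPM in cells without Wt1 (log2 fold change -4.02). Myoc, myocilin, had -4.68, C1qtnf3 -3.63, the Rac exchange factor Prex2 -3.60, the matrix protein Vwa1 -3.56, and Ccnd1, cyclin D1, -3.52. Apod, apolipoprotein D, had -3.33, Pgf, placental growth factor, -2.91, the interferon-induced Ifit3 -2.90, the glutathione transferase Gsta3 -2.89 and the eosinophil attractant Ccl11 -2.85. DESeq2 called each of them. Of the 11 genes from Pcsk6 to Ccl11 named here, only Pcsk6 and Apod kept an edgeR call without heart 2.

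**Figure D4:**
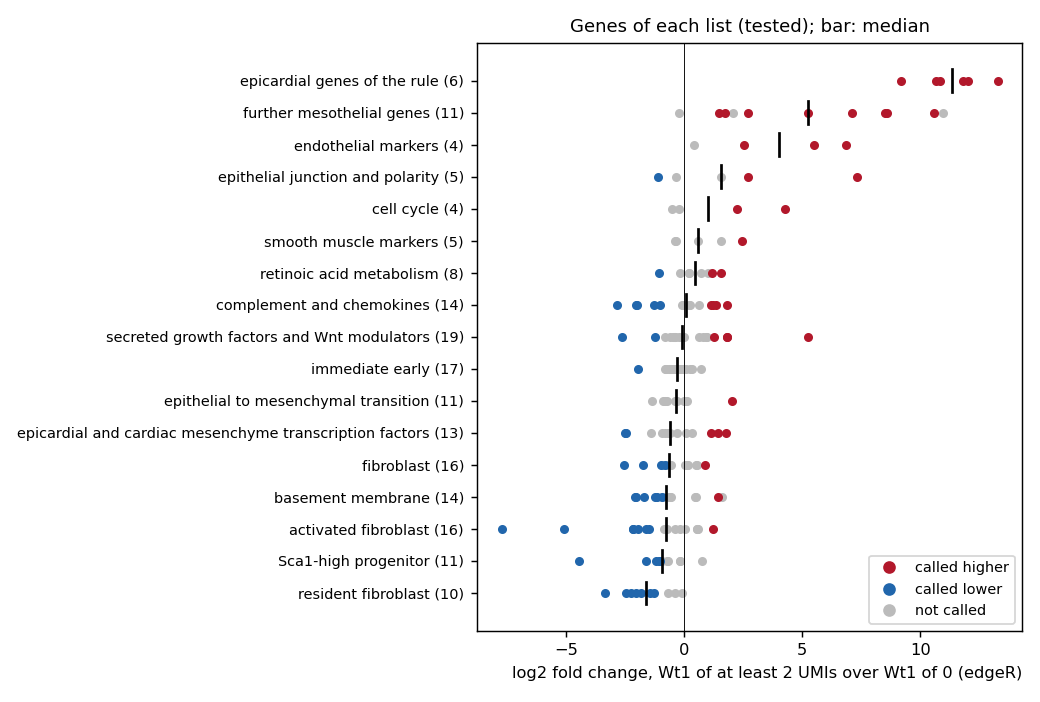
The log2 fold change (members over cells without Wt1, edgeR) of each tested gene in the 17 lists with at least 4 tested genes, whose number is in brackets; red points were called higher, blue lower and grey not called, and black bars are medians. The medians run from 11.32 for the epicardial genes to -1.64 for resident fibroblast genes.

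Secreted factors moved both ways. Of 19 tested growth factors and Wnt modulators, 4 rose, 2 fell and 13 were not called, with a median of -0.11, and DESeq2 called 2 higher, Rspo1 and Wnt5a. Wnt5a, a noncanonical Wnt ligand, was at 34.9, 43.8 and 68.1 CPM in members and 11.7, 12.6 and 12.7 CPM in cells without Wt1 (log2 fold change 1.79). Igf1 (1.26) and the chemokine Cxcl12 (1.80) rose, and Bmp4 (-2.64) and Tgfb1 (-1.25) fell. Cxcl12 turned its sign at a hashtag share of 95% (-0.81). Of 14 complement and chemokine genes tested, 4 rose (C3, C4b, Ccl2 and Cxcl12), 5 fell (among them Ccl11, Il6, Cxcl14 and Cxcl1) and 5 were not called. Their median was 0.07, and DESeq2 called none higher and 2 lower (Ccl11 and Il6). C3, C4b and Ccl2 lost their edgeR calls without heart 1 and also without heart 2. C4b and Ccl2 were lower in members of heart 4 than in its cells without Wt1. C3, the central complement component, was at 2079, 997 and 1056 CPM in members and 487, 427 and 759 CPM in cells without Wt1 (log2 fold change 1.20, not called by DESeq2). Ccl2 turned its sign with Wt1 of at least 3 UMIs (-0.71) and among cells of at least 15000 UMIs (-0.27). Of 17 immediate early genes, Socs3, an inhibitor of cytokine signalling, fell (-1.97) and 16 were not called (median -0.30). Of 12 listed cell cycle genes 4 were tested, and Cdk1 (2.24) and Ube2c (4.25) were called higher. Both lay under 10 CPM in cells without Wt1 and entered the test only through the members, so these calls are a description. The Ube2c UMIs lay in 3 cells, and the summed members of hearts 1 and 4 had none.

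Some markers of other cell types were higher in members. Of the 8 endothelial markers, Cdh5, Emcn and Tie1 had no UMI in the 77 members and Pecam1 had 17 UMIs in 12 of them. The summed endothelial markers stood at 126, 258 and 204 CPM in members of hearts 1, 2 and 4, against 31.0, 38.2 and 39.7 CPM in cells without Wt1. Of 4 tested, Kdr (5.48), Esam (6.87) and Fabp4 (2.52) were called higher, and Fabp4, a fatty acid carrier, made up 238 UMIs in 41 members. Kdr and Esam lay under 1 CPM in cells without Wt1 and entered the test only through the members, so these calls are no test of the list. Summed smooth muscle markers were at 258, 1014 and 170 CPM in members and 646, 635 and 64.0 CPM in cells without Wt1, with Des (2.44) the only call of 5, and over the whole library at 989 CPM in members and 460 CPM in cells without Wt1. Des lay under 10 CPM in cells without Wt1 of each heart and also entered the test only through the members. Macrophage markers summed to 34.9, 10.9 and 0 CPM in members and 7.03, 7.21 and 4.55 CPM in cells without Wt1, with 4 of 8 at 0. Pericyte markers summed to 34.9, 56.9 and 102 CPM in members and 108, 117 and 130 CPM in cells without Wt1, with 3 of 8 at 0. Cardiomyocyte markers summed to 6.98, 8.75 and 68.1 CPM in members and 14.3, 21.3 and 27.3 CPM in cells without Wt1, and Schwann cell markers to 6.98, 17.5 and 68.1 CPM in members and 14.7, 15.6 and 18.5 CPM in cells without Wt1, with 1 gene tested and none called in each. Lymphocyte, neutrophil and erythroid markers summed to at most 5.47 CPM in any members' sum, and none could be tested. The part of these markers in the differences above was not tested.

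The kind of member moved with the number of epicardial genes, by the choice made here after seeing the data. The 47 members with none of the 7 genes had Col1a1 at 10612 CPM, Cthrc1 at 873 CPM and Nkain4 at 49.9 CPM. The 22 with 2 to 4 genes had Col1a1 at 6212 CPM, Cthrc1 at 487 CPM and Nkain4 at 409 CPM. The cell with all 7 had Col1a1 at 3041 CPM, no Cthrc1 and Nkain4 at 2027 CPM. Wnt4 was at 256 CPM, 218 CPM and 140 CPM over the same 3 classes, and Postn was at 1174 CPM, 1026 CPM and 0 CPM. The classes were made from these cells and get no test. The 26 members without a single hashtag, which entered no test, had Clu at 1528 CPM, Wnt4 at 337 CPM and Nkain4 at 76.6 CPM, against 7.45 CPM, 5.36 CPM and 0.720 CPM in cells without Wt1.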

How the data were processed

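Single-cell libraries of sorted mouse heart cells were captured with the Chromium single cell 3' kit v2 and aligned by the authors to a modified mm10 genome with Cell Ranger, per the labels' protocols (the barcodes of the tdTomato libraries differ, as the report describes); the file headers of the PDGFRa and citrine matrices give version 3.0.2. Seurat 2.1 is named in the submitters' processing notes. The deposited values are raw UMI counts per gene and barcode, as the values show (whole numbers, with different totals per cell). The PDGFRa library had 13830 barcodes, of which 12567 were kept with 120683114 UMIs in all. Reads without further identifiers than the UMI set the depth, so intervals and limits cover counting error only.

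From these counts, cells were kept by the limits given in the report, hashtags were assigned at 80% of a cell's hashtag counts, and no doublets were called. UMIs were summed per heart and Wt1 class and tested with edgeR 4.0.16 (TMM, quasi-likelihood, heart as a block, genes with a mean of at least 10 CPM, Benjamini-Hochberg over all genes tested). DESeq2 1.42.0 and limma-voom 3.58.1 were alternatives (R 4.3.3). Other steps used Python 3.11.15 with pandas 2.3.3, scipy 1.17.1, numpy 2.4.6 and matplotlib 3.10.9. CPM divide a gene's UMIs by all UMIs of its class. Shares have exact Clopper-Pearson 95% intervals, a count of 0 is limited by 3 counts, and thinned shares are expected values when 5000 UMIs are drawn from each cell that has as many. The step was tested on simulated counts, with 1 mean per gene for all hearts and 1 spread for all genes, which is simpler than the real sums. There edgeR called 20% of 2-fold rises and 16% of 2-fold falls. It called 88% of 4-fold rises and 52% of 4-fold falls, and 100% and 76% at 16-fold. A gene that was not called may therefore still differ.

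The heart is the replicate, but the labels do not say how the 4 hearts were processed beyond the pool. The p-values of edgeR rest on 1 spread shared by all genes, so they do not measure a gene's own spread between hearts. The planned minimum of 10 cells per sum left 1 heart in the PDGFRa library and none in the citrine library. The fit used here therefore took every heart with a member, a choice made after seeing the data, and the citrine library was not fitted. The members and the 24 gene lists (285 genes, 283 of them in the file) were chosen with earlier results of these data known. Named genes were those lists, the 15 largest changes each way among genes called by edgeR with at least 50 CPM in the higher class and 1 direction in every heart (mitochondrial, ribosomal, reporter and hashtag features and Wt1 left out), and Wt1, Pdgfra, Hic1 and the reporters. A few genes that the rule names are not reported here. Coordinates come from GENCODE M21 by gene ID.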

Additional observations from a re-analysis of the deposited data

Results flagged for a closer look

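With every cell thinned to 5000 UMIs, the expected share of cells with at least 2 Wt1 UMIs was 0.0770% in heart 1, 0.483% in heart 2, 0% in heart 3 and 0.0764% in heart 4. Heart 2 lay apart from the other 3, since its gap to the nearest of them made up 0.841 of the whole range. For a single value, chance sets a sample apart in this way in about 1 in 20 groups. Several values per heart were looked at in this way, so some flag is likelier than that. The share of members and the thinned share with at least 1 Wt1 UMI were among them and were not flagged. No test of this value was made. Whether heart 2 was ligated is not given in the labels.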

How the results depend on the processing

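The number of genes called higher in members (245) became 582 with no filter on low counts, 25 at a mean of at least 50 CPM, 107 with no replicate block, 135 with DESeq2, 554 with limma-voom, 152 with Wt1 of at least 1 UMI, 124 with a hashtag share of at least 95%, and 127 without cells above the 95th percentile of UMIs; leaving out 1 heart gave 37 to 437. The number called lower (362) became 44 at a mean of at least 50 CPM, 80 with no replicate block, 93 with DESeq2, 153 with Wt1 of at least 1 UMI, 221 with at least 3, 58 at a hashtag share of 95%, 147 without the cells of most UMIs and 224 in cells of at least 15000 UMIs; leaving out 1 heart gave 18 to 462. Heart 3 held no member, so leaving it out changed nothing. The share of members (0.613%) became 1.04% with Wt1 of at least 1 UMI, 0.469% with at least 3, 0.343% without the cells of most UMIs and 2.73% in cells of at least 15000 UMIs. Limma-voom, the limit of 15000 UMIs and leaving out the cell with all 7 epicardial genes (212 higher, 327 lower) were chosen after seeing the data.

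Of the named genes, these turned their sign: in cells of at least 15000 UMIs Aldh1a1 (0.017), Col1a1 (-0.14), Inmt (0.89), Fn1 (-0.24) and Ccl2 (-0.27), at a hashtag share of 95% Col1a1 (-0.36) and Cxcl12 (-0.81), with Wt1 of at least 3 UMIs Ccl2 (-0.71), and over the hearts left out Rbp4 (-1.26 without heart 2, up to 2.01). The cause was not tested. The median log2 fold change of all genes was -0.09, and -0.40 with no filter, -0.20 without heart 2 and -0.16 without the cells of most UMIs. The tests planned for the citrine library were not run, since 4 cells fill no sum of 10 cells.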

Other observations

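Some genes outside the lists and the naming rule were chosen after their values were seen. Cd74, the class II invariant chain, was at 126, 59.1 and 0 CPM in members of hearts 1, 2 and 4, against 3.38, 0.227 and 0 CPM in cells without Wt1 (log2 fold change 6.46). H2-Ab1 was at 41.9, 53.6 and 0 CPM in members and 2.36, 0.580 and 0.520 CPM in cells without Wt1 (5.42), and H2-Eb1 at 48.8, 56.9 and 0 CPM in members and 4.04, 1.79 and 2.47 CPM in cells without Wt1 (4.26). H2-Ab1 and H2-Eb1 encode class II chains. These 3 genes are no list, and each entered the test only through the members. DESeq2 called all 3, and without heart 2 none of them kept an edgeR call. Macrophage markers stood at 34.9, 10.9 and 0 CPM in members of these hearts and at 7.03, 7.21 and 4.55 CPM in cells without Wt1, and their part in the result was not tested.

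Saa3, an acute phase protein, was at 97.7, 739 and 0 CPM in members and 10.6, 8.67 and 0.130 CPM in cells without Wt1 (log2 fold change 5.15), and it had no UMI in the 4 citrine cells. It was found in 29 of 77 members, and 1 cell held 312 of their 871 Saa3 UMIs. Without heart 2 Saa3 lost its edgeR call. Cxadr, a junction protein that serves as the coxsackievirus and adenovirus receptor, was at 27.9, 142 and 0 CPM in members and 0.0393, 0.454 and 0 CPM in cells without Wt1 (8.37). Without heart 2 Cxadr could not be tested. Saa3 and Cxadr also entered the test only through the members.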
